A study of Mus musculus with 14 samples.

Results

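The mitochondrial protein import machinery was read in hearts of 2 mouse models of a mitochondrial iron-sulfur cluster disorder, Friedreich's ataxia. Its members were the protein-coding genes whose GENCODE M21 symbol begins with Timm or Tomm and a digit, together with *Pam16*, *Dnajc15*, *Dnajc19*, *Grpel1*, *Grpel2*, *Hspa9*, *Samm50*, *Mtx1*, *Mtx2*, *Chchd4*, *Gfer*, *Pmpca* and *Pmpcb*. This gave 38 genes of the 54532 gene identifiers counted, and all 38 were matched by Ensembl identifier. The samples were 14 C57BL/6 hearts, labelled as taken at postnatal day 180, each read as 1 library from the 3′ ends of polyadenylated RNA (QuantSeq FWD). The 4 hearts labelled YG8-800 are from mice without the mouse gene of the disease, deleted on both chromosomes, that carry a human copy of it with a long GAA repeat in its first intron. The 4 hearts labelled WT are named as the wild-type controls of that line. The 3 female and 3 male KIKO-700 hearts are from mice with a GAA expansion knocked into the first intron of 1 allele and a deletion in the other, and these 6 mice share that genotype. The study's text gives a greater age than the labels. WT hearts of the KIKO-700 cohort were not analysed here, so the KIKO-700 genotype has no control below. Groups go by their labels, and no check of the genotypes against the reads is given here.

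Nearly all mitochondrial proteins are made in the cytosol and carried through 2 membranes. The TOM complex is the entry gate of the outer membrane, the TIM23 complex takes proteins with a cleavable presequence through the inner membrane, and the PAM motor, built on the matrix chaperone encoded by *Hspa9*, pulls them in, where the processing peptidase MPP cuts the presequence off. Small TIM chaperones escort hydrophobic carriers to the TIM22 complex, the SAM complex inserts barrel proteins into the outer membrane, and the MIA pathway of *Chchd4* and *Gfer* traps small proteins in the intermembrane space by making disulfide bonds. The heart, whose contraction runs on mitochondrial ATP, expresses the pathway throughout life, and inherited loss of *DNAJC19* in humans causes a cardiomyopathy.

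Total counts ran from 5226233 to 11650840 per library, and genes of mitochondrial DNA took 28.9% to 44.6% of them. The members took 0.124% to 0.217%, the highest share being that of YG8-800 2. Markers of ventricular cardiomyocytes were abundant in every library, at a sum of 19644 to 39781 CPM (counts scaled to a common library size) over 7 genes. *Xist*, the RNA of the inactive X chromosome, was high in WT 1, WT 2, WT 4, YG8-800 1 and YG8-800 3 (38.0 to 52.6 CPM) and near 0 in WT 3, YG8-800 2 and YG8-800 4 (at most 0.327 CPM), where the Y-linked *Ddx3y* was read instead at 43.0 to 61.2 CPM. No sex is labelled in this experiment of 8 libraries, for which the study's text speaks of males, and the labelled sex of the 6 KIKO-700 libraries matched their *Xist* and *Ddx3y* levels. In whole hearts, fewer cells of a type and less RNA per cell cannot be told apart.

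Promoters were looked at for what the members share in sequence. RefSeq's promoter table (GRCm38.p6) held 33 of the 38 members, and the 250 bases before the start site were searched on both strands for the letters CCGGAAG, the core that ETS factors such as GABPA recognise. They occurred in 13 of the 33 members (39.4%), beside 1368 of the 8562 genes tested below for YG8-800 that the table held and 7.83% of its 27025 genes. The letters CATGCGC, a part of the NRF1 motif, were in 3 of the 33 members (9.09%) and in 6.76% of those tested genes. The 4 promoters shown are those of *Mtx2* and *Pmpcb* and of *Dnajc19* and *Tomm5*. Levels ran together over the libraries in both pairs, which were chosen after the values were seen. *Dnajc19* and *Tomm5* also passed the unadjusted threshold between YG8-800 and WT. Capitals mark CCGGAAG. Matches are descriptions of these windows, and no binding was measured.
*Mtx2*, chr2:74825562-74825811, plus strand: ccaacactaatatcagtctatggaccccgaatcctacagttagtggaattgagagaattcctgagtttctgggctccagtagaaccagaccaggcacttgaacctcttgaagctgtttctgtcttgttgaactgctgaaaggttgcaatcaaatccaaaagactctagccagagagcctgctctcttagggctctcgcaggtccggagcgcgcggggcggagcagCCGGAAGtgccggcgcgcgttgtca
*Pmpcb*, chr5:21736910-21737159, plus strand: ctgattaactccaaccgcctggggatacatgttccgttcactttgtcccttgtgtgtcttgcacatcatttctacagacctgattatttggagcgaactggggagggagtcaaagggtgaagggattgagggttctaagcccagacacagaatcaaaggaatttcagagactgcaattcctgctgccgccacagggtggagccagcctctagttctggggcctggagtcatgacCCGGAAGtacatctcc
*Dnajc19*, chr3:34081355-34081604, minus strand: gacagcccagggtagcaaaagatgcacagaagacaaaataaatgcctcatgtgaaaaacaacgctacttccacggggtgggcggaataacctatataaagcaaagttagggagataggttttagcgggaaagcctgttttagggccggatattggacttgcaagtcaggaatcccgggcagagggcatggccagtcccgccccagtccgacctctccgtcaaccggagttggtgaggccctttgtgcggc
*Tomm5*, chr4:45108114-45108363, minus strand: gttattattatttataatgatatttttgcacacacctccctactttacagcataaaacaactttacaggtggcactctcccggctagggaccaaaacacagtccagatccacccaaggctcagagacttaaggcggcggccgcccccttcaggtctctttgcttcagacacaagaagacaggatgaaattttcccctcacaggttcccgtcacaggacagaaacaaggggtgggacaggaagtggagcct
*Mtx2* and *Pmpcb* each held the letters once, close to the start site, and these windows of *Dnajc19* and *Tomm5* did not hold them.

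Of the 38 members, 36 had enough counts to be tested. *Tomm20l* and *Timm8a2*, copies of *Tomm20* and of the *Timm8a1* type that have few reads here, held 7 and 3 counts over all 14 libraries and were left out. A QuantSeq library gives about 1 tag per transcript, so levels are CPM without division by length and can be set side by side between genes. The highest means over 14 libraries were those of *Tomm7*, a small stabiliser of the TOM complex (158 CPM), *Hspa9*, the motor chaperone (146 CPM), and *Timm8b*, a small TIM (146 CPM). Their libraries overlapped widely, at 82.5 to 231 CPM, 113 to 209 CPM and 84.9 to 204 CPM, so their order is not separated by the spread. *Samm50*, the pore of the SAM complex, followed at 114 CPM, and *Tomm20*, a receptor for presequences, at 78.2 CPM. The lowest of the tested members were *Mtx1* (5.04 CPM), *Tomm34* (4.41 CPM) and *Grpel2* (4.21 CPM), a nucleotide exchange factor of the motor. Its paralog *Grpel1* was at 40.4 CPM. The presequence pore subunit *Timm23* (39.6 CPM) and the pore of the TOM complex, *Tomm40* (18.7 CPM), lay in the middle of the order.

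**Figure D1:**
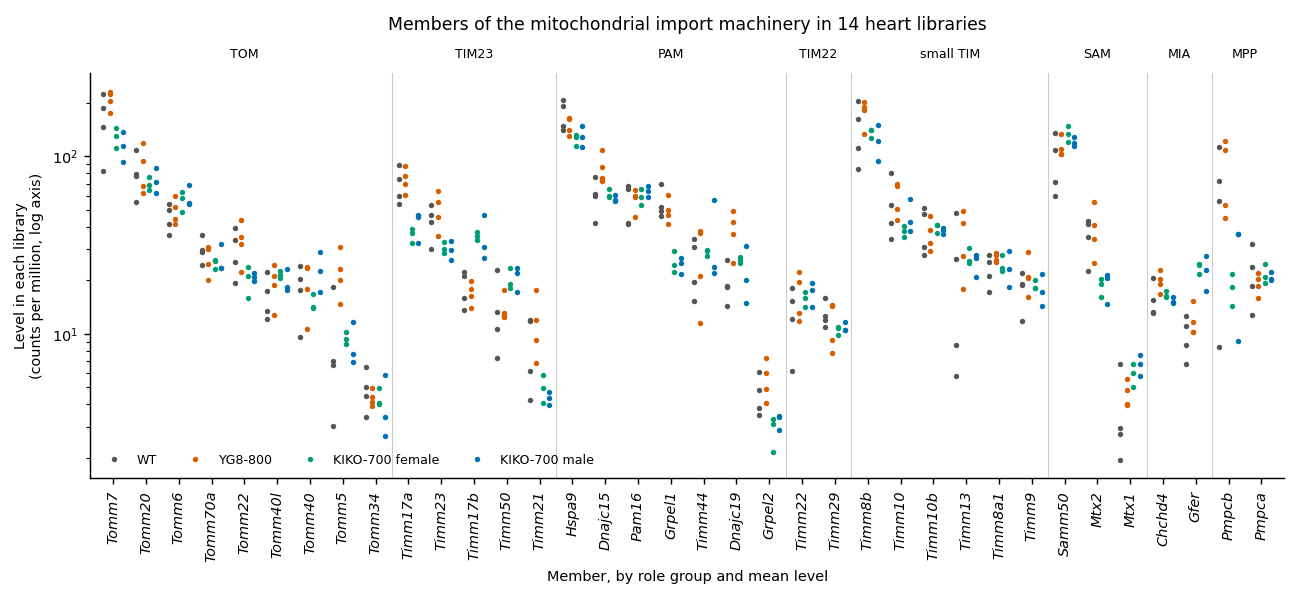
Level of the 36 tested members in each of 14 libraries, in CPM on a log axis, grouped by role and ordered by mean. Each point is 1 library. Points of *Pmpcb*, *Timm13* and *Tomm5* spread widest in WT, *Timm17a*, *Grpel1* and *Mtx2* are lower and *Timm17b* and *Gfer* higher in KIKO-700 libraries.

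YG8-800 was compared with WT to see how the machinery differs in hearts with the expanded human transgene in place of the mouse gene. No member passed an adjusted p under 0.05 by edgeR's quasi-likelihood test, as for the 11875 genes tested, of which 0 did (0% called). At an unadjusted p under 0.05, the threshold of the study, 2 of 36 members passed, both higher in YG8-800 (5.56%), beside 6.05% of all genes tested (3.04% higher and 3.01% lower), so the members' share was near that of all genes. These were *Dnajc19*, a J protein of the import motor, and *Tomm5*, a small subunit of the outer membrane gate. The log2 fold change was above 0 for 28 of 36 members (77.8%) and for 49.5% of all genes, and the median was 0.23 for the members and −0.01 for all genes. With scaling by library size alone 23 members were above 0 and the medians were 0.07 and −0.21. No member separated the 4 YG8-800 from the 4 WT libraries, beside 3.88% of all genes that did.

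*Dnajc19* (ENSMUSG00000027679, chromosome 3, 34056020 to 34081321 of GRCm38) was read at 14.3, 18.3, 18.7 and 26.1 CPM in WT 1 to 4 and at 49.2, 42.7, 25.2 and 36.3 CPM in YG8-800 1 to 4. YG8-800 3, the lowest of its group, lay below WT 4, the highest of the other, and the remaining libraries were apart. Means were 19.3 ± 4.91 CPM in WT and 38.4 ± 10.2 CPM in YG8-800 (SD, n = 4 each), a log2 fold change of 1.02 (SE 0.28). The unadjusted p was 0.00285 and the adjusted p 0.786 by edgeR, and the exact permutation test over libraries gave p = 0.0571 (two-sided), against a smallest possible p of 0.0286. The processed pseudogene *Dnajc19-ps* on chromosome 7 is 99.1% identical to the end of the *Dnajc19* transcript over 351 bases, and it held 4155 counts over 14 libraries, beside 3244 for *Dnajc19*. How the counting divided reads between these copies cannot be told from the counts, so the level of *Dnajc19* is uncertain. *Dnajc19-ps* was read at 18.4, 29.5, 51.6 and 35.5 CPM in WT and 47.2, 77.1, 33.7 and 45.1 CPM in YG8-800, a log2 fold change of 0.61 (SE 0.34, unadjusted p = 0.0895, adjusted p = 0.839). With the counts of both added, the log2 fold change of *Dnajc19* was 0.77, with an unadjusted p of 0.0229.

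*Tomm5* was read at 7.08, 6.69, 3.04 and 18.4 CPM in WT 1 to 4 and at 30.8, 20.1, 14.8 and 23.2 CPM in YG8-800 1 to 4. WT 4 lay above YG8-800 3, and the other 3 WT libraries lay below all YG8-800 libraries. Its means were 8.80 ± 6.65 and 22.2 ± 6.69 CPM (SD, n = 4 each), a log2 fold change of 1.36 (SE 0.45) with an unadjusted p of 0.0104, an adjusted p of 0.786 (edgeR) and an exact permutation p of 0.0571. Without WT 4, the WT library highest for *Tomm5*, the log2 fold change was 2.02 at an adjusted p of 0.0138 by edgeR. At that setting 146 of 12276 genes passed the adjusted threshold. Without WT 2 and WT 3 together, left out after the data were seen, it was 0.84 for *Tomm5* at an unadjusted p of 0.0627. Without WT 4, *Timm13*, *Dnajc15*, *Chchd4* and *Mtx1* also passed the unadjusted threshold, all higher in YG8-800, and 1695 of 12276 genes did so.

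**Figure D2:**
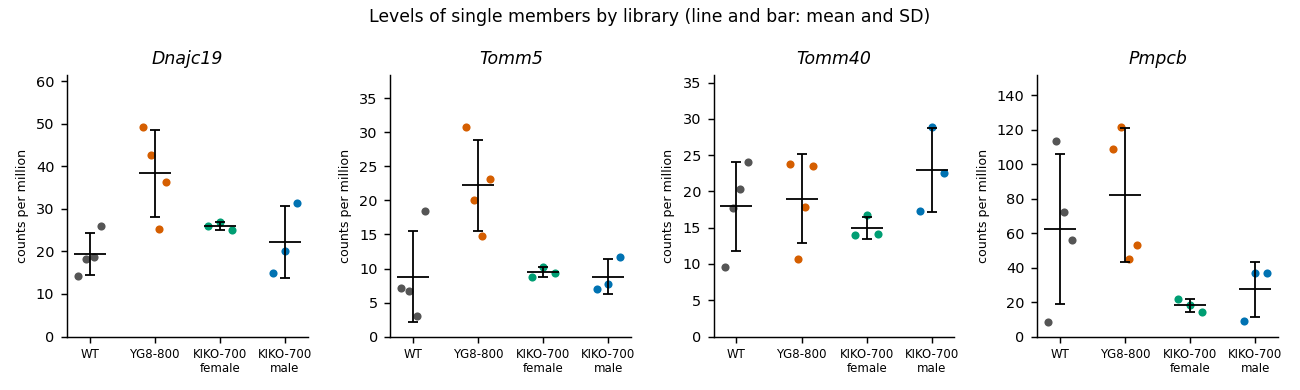
Level in CPM of 4 members in each library of the 4 groups; points are libraries and the line with its bar is the mean and SD of a group. *Dnajc19* and *Tomm5* are higher in YG8-800 than in WT with 1 pair of libraries crossing, all 3 KIKO-700 males lie above the females for *Tomm40*, and *Pmpcb* spans 8.45 to 122 CPM.

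Of the 9 tested members with a Tomm symbol, 7 were above 0 (median 0.14), 1 passed the unadjusted threshold and 2 were below 0. Over all genes tested 49.5% were above 0 and 6.05% passed, the shares to set beside each complex below. *Tomm7* was at 82.5, 146, 225 and 188 CPM in WT and 224, 231, 175 and 204 CPM in YG8-800, with WT 1 and WT 2 below all YG8-800 libraries and a log2 fold change of 0.40 (SE 0.31). The receptor *Tomm20* was at 54.9, 79.5, 109 and 77.4 CPM in WT and 61.8, 119, 68.01 and 94.6 CPM in YG8-800, and the groups overlapped, with a log2 fold change of 0.12 (SE 0.29). For the pore *Tomm40* the values were 9.61, 17.7, 20.4 and 23.99 CPM in WT and 23.8, 10.7, 17.9 and 23.5 CPM in YG8-800. WT 1 and YG8-800 2 were its lowest libraries, and the log2 fold change was 0.11 (SE 0.34). *Tomm6*, another small subunit, was counted almost exactly as often as the overlapping gene *Gm21981* on the same strand (6153 and 6157 counts over 14 libraries, at most 4 apart in any library), which shares 859 exonic bases with it, so the reads of these genes cannot be told apart.

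Of the 5 tested TIM23 members 4 were above 0 (median 0.13) and 0 passed the unadjusted threshold. *Timm17a*, a subunit of the channel, was at 54.2, 74.02, 89.2 and 59.9 CPM in WT and 77.5, 88.4, 60.5 and 69.99 CPM in YG8-800. *Timm23* was at 30.1, 46.8, 42.7 and 52.98 CPM in WT and 64.02, 55.3, 35.6 and 45.8 CPM in YG8-800. The X-linked *Timm17b*, which takes the place of *Timm17a* in some TIM23 complexes, was at 15.8, 13.6, 22.3 and 21.05 CPM in WT and 16.4, 14.04, 17.9 and 19.95 CPM in YG8-800. The groups overlapped for all 3, and their log2 fold changes were 0.13 (SE 0.25), 0.24 (SE 0.27) and −0.06 (SE 0.26). In the PAM motor 5 of 7 were above 0 (median 0.15). *Hspa9* was at 192, 209, 148 and 140.1 CPM in WT and 163, 164, 141 and 130.3 CPM in YG8-800, a log2 fold change of −0.17 (SE 0.24); WT 1 and WT 2 held its highest levels. *Dnajc15*, a J protein similar to *Dnajc19*, was at 59.99, 42.02, 61.6 and 76.4 CPM in WT and 72.3, 109, 75.8 and 87.4 CPM in YG8-800. WT 4 lay above 2 YG8-800 libraries, and the log2 fold change of 0.55 (SE 0.26) had an unadjusted p of 0.0517, which fell on the other side of the threshold with DESeq2 (0.0435) and limma-voom (0.0439).

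**Figure D3:**
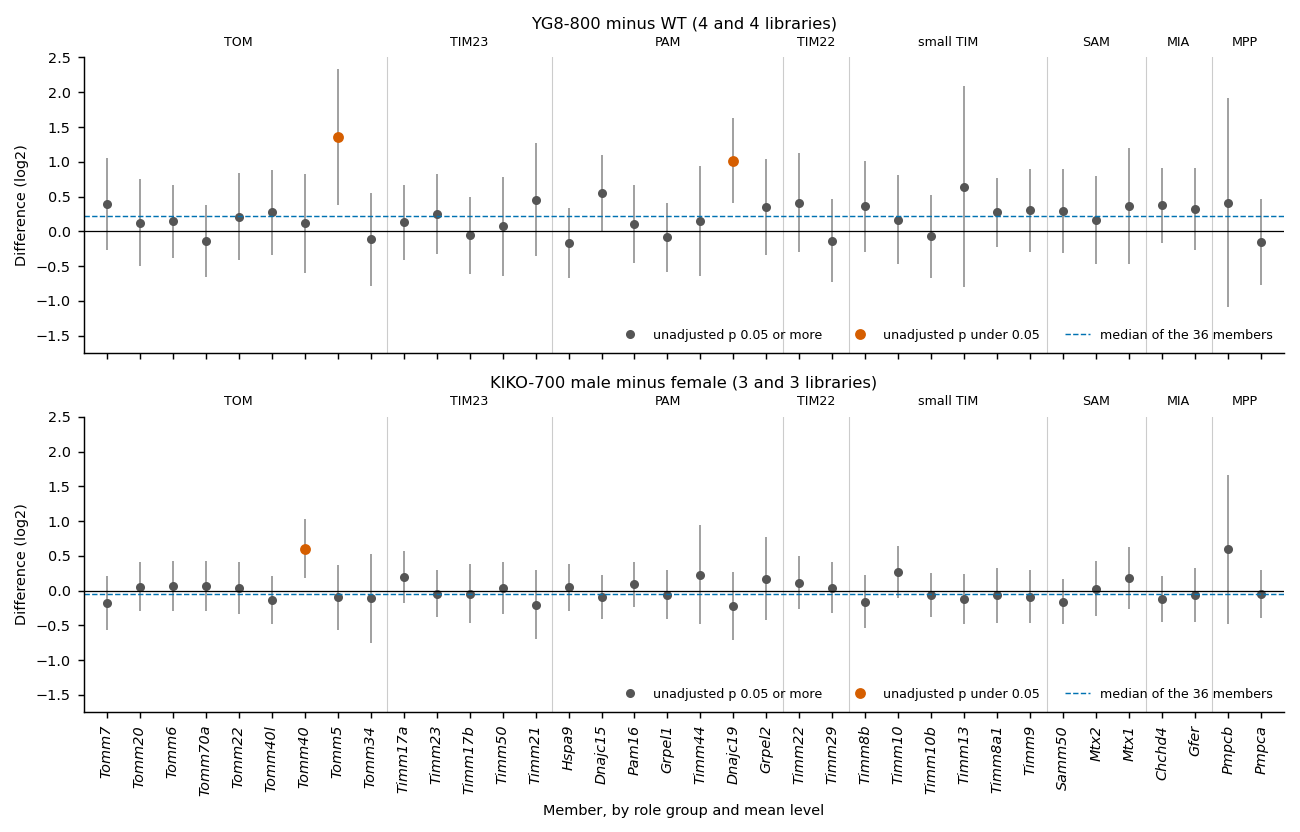
Log2 difference of each tested member with its 95% confidence interval, YG8-800 minus WT above and KIKO-700 male minus female below; the dashed line is the median of 36 members. In the upper plot 28 of 36 points are above 0 and the intervals of *Dnajc19* and *Tomm5* exclude 0; in the lower plot 17 are above 0 and the interval of *Tomm40* excludes 0.

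Among small TIM chaperones 5 of 6 tested members were above 0 (median 0.29), without a pass of the unadjusted threshold. *Timm8b* was at 84.9, 111, 204 and 161 CPM in WT and 183, 202, 133 and 190.4 CPM in YG8-800. *Timm10*, which forms a carrier chaperone with *Timm9*, was at 34.01, 42.1, 80.7 and 53.4 CPM in WT and 43.6, 70.2, 50.3 and 67.6 CPM in YG8-800. The X-linked *Timm8a1*, whose human counterpart is lost in a deafness and dystonia syndrome, was at 25.2, 21.2, 17.1 and 27.8 CPM in WT and 25.4, 27.8, 25.9 and 28.7 CPM in YG8-800. The groups overlapped for these 3, with log2 fold changes of 0.36 (SE 0.31), 0.17 (SE 0.30) and 0.27 (SE 0.23). *Timm13*, the partner of *Timm8a1* and *Timm8b*, varied most of the small TIMs within WT, from 5.81 CPM in WT 2 to 48.0 CPM in WT 4, and its difference of 0.64 (SE 0.64) was about the size of its error. In the TIM22 complex, *Timm22*, the carrier channel, was at 18.1, 6.21, 12.2 and 15.3 CPM in WT and 11.8, 13.2, 19.6 and 22.3 CPM in YG8-800, a log2 fold change of 0.41 (SE 0.33). Its partner *Timm29* was at 10.98, 15.9, 11.9 and 12.7 CPM in WT and 14.4, 14.5, 9.23 and 7.85 CPM in YG8-800, a log2 fold change of −0.13 (SE 0.28). WT 2 was lowest for *Timm22* and highest for *Timm29*.

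All 3 SAM members were above 0 (median 0.29). *Samm50* was at 108, 60.1, 71.4 and 136 CPM in WT and 133, 103, 103 and 110.4 CPM in YG8-800, a log2 fold change of 0.29 (SE 0.28). *Mtx2*, an outer membrane partner of *Samm50*, was at 22.5, 43.1, 41.4 and 35.3 CPM in WT and 41.2, 55.3, 24.9 and 34.3 CPM in YG8-800, a log2 fold change of 0.16 (SE 0.30). WT 4 held the highest level of *Samm50* and YG8-800 2 the highest of *Mtx2*. Both MIA members were above 0. *Chchd4*, the oxidoreductase, was at 15.5, 13.1, 13.2 and 20.6 CPM in WT and 19.2, 20.3, 16.7 and 22.9 CPM in YG8-800, a log2 fold change of 0.37 (SE 0.25). *Gfer*, the oxidase that recharges it, was at 12.7, 6.77, 8.68 and 11.04 CPM in WT and 10.3, 11.7, 10.3 and 15.4 CPM in YG8-800, a log2 fold change of 0.32 (SE 0.28). The groups overlapped for both, with YG8-800 4 the highest library of each.

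The 2 subunits of MPP differed in spread. *Pmpcb*, the catalytic subunit, was at 8.45, 113, 72.3 and 55.8 CPM in WT 1 to 4 and at 109, 122, 44.9 and 52.9 CPM in YG8-800 1 to 4, so WT 1 lay far below the other 7 libraries. *Pmpca*, the subunit that recognises the presequence, was at 12.8, 31.99, 23.6 and 18.5 CPM in WT and 22.01, 20.3, 15.8 and 18.5 CPM in YG8-800. The log2 fold changes were 0.41 (SE 0.66) and −0.15 (SE 0.29), and the 95% interval for *Pmpcb* ran from −1.09 to 1.92. Over the members, the SD of log2 CPM within WT had a median of 0.40 (0.23 to 1.63), beside 0.46 over the 7596 genes of the same level range. Intervals lay within a 2-fold change either way for 25 of 36 members in this comparison, and the smaller differences were not detectable at this spread.

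The members' levels were also set side by side library by library. After centring each member on its mean over the 8 libraries, the median deviation was −0.38 in WT 1 and −0.30 in WT 2 on the log2 scale, with 11 and 10 of 36 members above their mean. It was 0.05 and 0.12 in WT 3 and WT 4 and 0.14, 0.23, −0.06 and 0.21 in YG8-800 1 to 4, so WT 3 and WT 4 lay within the range of the YG8-800 libraries. Without WT 1 the median log2 fold change of the members was 0.07. Adipocyte markers were highest in WT 1 and WT 2, at sums of 95.4 and 187 CPM over 4 genes, beside 8.46 and 31.1 CPM in WT 3 and WT 4 and 8.06 to 26.6 CPM in YG8-800, and 3 of the 4 markers were lower in YG8-800 at an unadjusted p under 0.05. Macrophage markers summed to 122 to 166 CPM in WT and 75.0 to 125 CPM in YG8-800 over 5 genes. Of these 2 were lower at that threshold, *Csf1r* and *Cd163*. *C1qa* and *Adgre1* were lower without passing it, and *Cd68* was higher, at a log2 fold change of 0.38. Of other lists, sums of ventricular cardiomyocyte markers were lowest in WT 2 and WT 3, at 19644 and 23679 CPM. Atrial sums were lowest in YG8-800 4 and YG8-800 1, at 127 and 158 CPM. Of the 7 markers in each of these cardiomyocyte lists, 0 passed the unadjusted threshold. No marker of the lists named was at 0 in all libraries, and their part in the members' difference was not tested. With the *Xist* level as a covariate, 27 of 36 members were above 0, the median was 0.24, and *Dnajc19* (1.00) and *Tomm5* (1.57) stayed past the unadjusted threshold.

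KIKO-700 males were compared with KIKO-700 females, the contrast that the labels allow in this cohort. Among 36 members 0 passed an adjusted p under 0.05 by edgeR, beside 8 of 11801 genes tested (0.0678%), and 1 passed an unadjusted p under 0.05 (2.78%), beside 7.14% of all genes (3.39% higher and 3.75% lower in males). This was *Tomm40*, the pore through which nearly all imported proteins enter. It was read at 14.05, 16.7 and 14.1 CPM in females 1 to 3 and 17.3, 28.9 and 22.5 CPM in males 1 to 3, so the groups did not overlap, beside 12.6% of all genes tested that did not. Its means were 14.96 ± 1.53 and 22.9 ± 5.80 CPM (SD, n = 3 each), a log2 fold change of 0.60 (SE 0.20) with an unadjusted p of 0.00900 and an adjusted p of 0.555 by edgeR. The exact permutation test gave 0.1, the smallest p that 3 against 3 allows. Male 2 was highest, and without it the log2 fold change was 0.42 at an unadjusted p of 0.0550. Without male 1 it was 0.77 at an adjusted p of 0.00295, and then 864 of 12245 genes passed the adjusted threshold.

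Over the members the differences between the sexes lay on both sides of 0. The log2 fold change was above 0 for 17 of 36 members (47.2%, beside 50.9% of all genes), with a median of −0.04 (0.01 over all genes), and 34 of 36 intervals lay within a 2-fold change either way. The intervals of both X-linked members included 0. *Timm17b* was at 35.6, 33.9 and 37.2 CPM in females and 46.8, 30.98 and 26.6 CPM in males, a log2 difference of −0.04 (95% interval −0.46 to 0.38). *Timm8a1* was at 22.5, 27.8 and 23.4 CPM in females and 29.2, 18.4 and 23.2 CPM in males, a log2 difference of −0.07 (95% interval −0.46 to 0.33). The members' SD of log2 CPM had a median of 0.14 in females and 0.23 in males, beside 0.16 and 0.25 over genes of the same level range, so the lower spread than in WT was shared by other genes.

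Male 1 stood apart in several members. *Pmpcb* was at 21.8, 18.3 and 14.4 CPM in females and at 9.13, 36.6 and 36.6 CPM in males, so males 2 and 3 were above and male 1 below all females. *Timm44*, which ties the motor to the channel, was at 27.5, 29.1 and 29.7 CPM in females and 56.4, 23.8 and 21.98 CPM in males, with male 1 highest of all 14 libraries. Without male 1, *Pmpcb* was higher in males by a log2 fold change of 1.01 at an unadjusted p of 6.55e-07 (adjusted p = 0.000191 by edgeR), and *Timm17a*, *Timm17b*, *Timm44* and *Timm8b* passed the unadjusted threshold. With *Tomm40* and *Pmpcb* these were 6 of 36 members, beside 2610 of 12245 genes at that setting, a larger share, so the passes are no result about the members.

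The other members named here overlapped between the sexes and did not pass the unadjusted threshold. *Tomm7* was at 145, 131 and 111 CPM in females and 92.7, 114 and 136 CPM in males. *Tomm20* was at 64.9, 76.6 and 68.7 CPM in females and 86.1, 62.4 and 71.5 CPM in males. *Tomm5* was at 8.81, 10.2 and 9.40 CPM in females and 6.96, 7.75 and 11.7 CPM in males. Male 1 was the lowest male for *Tomm7* and *Tomm5* and the highest for *Tomm20*. *Hspa9* was at 131, 114 and 129 CPM in females and 148, 128 and 113 CPM in males. *Dnajc15* was at 65.5, 60.1 and 58.7 CPM in females and 60.4, 56.7 and 56.3 CPM in males. *Dnajc19* was at 25.96, 26.9 and 25.03 CPM in females and 15.01, 20.1 and 31.4 CPM in males. For *Dnajc19* the 3 females lay between males 2 and 3, with male 1 lowest. *Timm23* was at 32.9, 30.1 and 28.5 CPM in females and 33.4, 26.1 and 29.7 CPM in males. *Timm22* was at 14.2, 15.8 and 17.3 CPM in females and 14.2, 17.6 and 19.5 CPM in males. *Timm29* was at 10.95, 9.86 and 10.8 CPM in females and 10.6, 11.7 and 10.5 CPM in males. Levels of these 3 channel subunits differed little between libraries, *Timm29* least. *Timm8b* was at 140.1, 140.0 and 128 CPM in females and 150.0, 94.3 and 123 CPM in males. *Timm10* was at 40.7, 37.8 and 34.9 CPM in females and 57.2, 42.4 and 37.8 CPM in males. Male 1 was the highest male for both of these small TIMs. *Samm50* was at 121, 134 and 149 CPM in females and 129, 119 and 114 CPM in males. *Chchd4* was at 16.2, 16.4 and 17.4 CPM in females and 16.2, 14.8 and 15.1 CPM in males. *Pmpca* was at 19.3, 20.9 and 24.8 CPM in females and 22.3, 20.2 and 20.4 CPM in males. For *Samm50* and *Chchd4* the highest library was female 3, and so it was for *Pmpca*. Adipocyte markers summed to 34.3 to 40.3 CPM in females and 11.6 to 18.6 CPM in males, all 4 lower in males at an unadjusted p under 0.05, and their part in the values above was not tested.

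Set side by side without a test, the KIKO-700 hearts and the hearts of the other experiment differed in 6 of 36 members (16.7%) whose libraries did not overlap, beside 11.4% of the 11208 genes tested in both. In 4 the KIKO-700 level was lower (background 4.26%) and in 2 higher (background 7.19%), and genotype and cohort cannot be told apart here. *Timm17a* was lower in KIKO-700, at 32.4, 38.9 and 36.9 CPM in females and 32.5, 45.6 and 46.5 CPM in males, against 54.2 to 89.2 CPM in the other 8 libraries. Its alternative *Timm17b* was higher, at 26.6 to 46.8 CPM against 13.6 to 22.3 CPM; the KIKO-700 medians of *Timm17a* and *Timm17b* were 37.9 and 34.8 CPM. *Grpel1* was lower, at 29.4, 22.4 and 24.4 CPM in females and 21.6, 26.8 and 25.2 CPM in males against 41.6 to 69.9 CPM, and *Grpel2* at 2.16 to 3.46 CPM against 3.50 to 7.30 CPM; the edges of *Grpel2* nearly touched. *Mtx2* was lower too, at 20.4, 16.1 and 19.1 CPM in females and 14.6, 20.6 and 21.4 CPM in males against 22.5 to 55.3 CPM. *Gfer* was higher, at 21.8, 24.6 and 24.3 CPM in females and 27.4, 17.5 and 23.01 CPM in males against 6.77 to 15.4 CPM. Sums of markers of 4 cell types did not overlap between the experiments either. Erythroid markers summed to 13479 to 19423 CPM in KIKO-700 and 1302 to 5737 CPM in the others over 5 genes. Atrial cardiomyocyte markers summed to 1697 to 2519 CPM and 127 to 1492 CPM over 7 genes. Among them *Nppa* held the largest part (948 to 1459 against 57.2 to 783 CPM), and *Bmp10*, *Stard10* and *Dkk3* did not overlap either. *Myl7* (329 to 473 against 20.9 to 405 CPM), *Sln* and *Myl4* overlapped. Macrophage markers summed to 177 to 261 CPM in KIKO-700 and 75.0 to 166 CPM in the others over 5 genes. Of these *Csf1r* did not overlap (85.3 to 116 against 24.9 to 70.3 CPM). *Cd68*, *C1qa*, *Cd163* and *Adgre1* overlapped, *Adgre1* at 3.12 to 7.88 against 4.98 to 13.2 CPM. Sums of fibroblast markers were lower in KIKO-700, at 477 to 773 CPM against 870 to 1508 CPM over 7 genes. *Dcn* held most of these sums, at 351 to 580 against 654 to 1325 CPM, and *Col3a1* and *Pdgfra* did not overlap either. *Col1a1* (29.5 to 41.4 against 22.3 to 58.4 CPM), *Col1a2*, *Lum* and *Tcf21* overlapped. No marker of these lists was at 0 in all libraries, and their part in the members' levels was not tested.

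**Figure D4:**
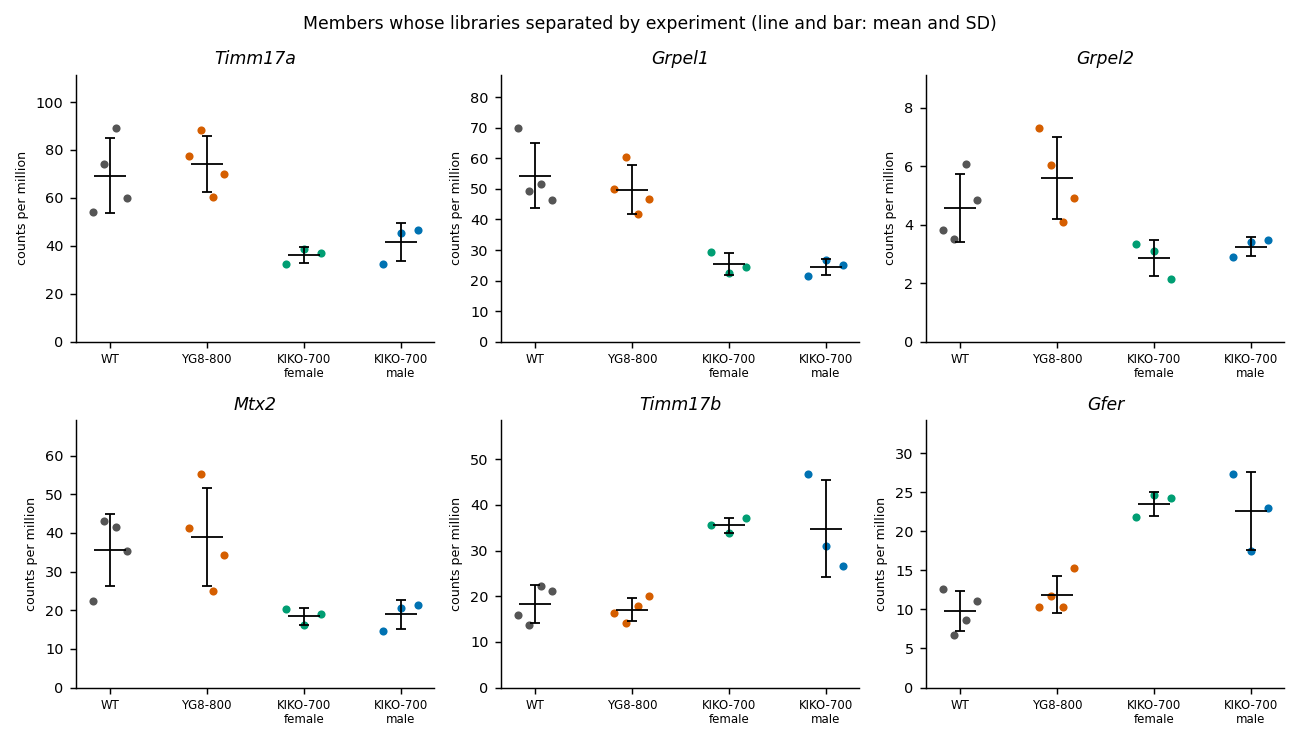
Level in CPM of the 6 members whose KIKO-700 libraries did not overlap the other 8; points are libraries and the line with its bar is the mean and SD of a group. *Timm17a*, *Grpel1*, *Grpel2* and *Mtx2* are lower and *Timm17b* and *Gfer* higher in both KIKO-700 groups.

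Some members ran together from library to library within each experiment. Of 630 pairs of tested members, 7 had a Pearson's r of at least 0.8 or at most −0.8 on log2 CPM with the same sign in both experiments, a limit chosen after the values were seen. *Dnajc19* and *Tomm5* had r = 0.85 over 8 libraries (exact permutation p = 0.00794, rho = 0.88 with p = 0.00724) and r = 0.95 over the 6 KIKO-700 libraries (exact permutation p = 0.00278, rho = 0.94 with p = 0.0167). *Mtx2* and *Pmpcb* had r = 0.87 (exact permutation p = 9.92e-05, rho = 0.98 with p = 0.000397) and r = 0.84 (exact permutation p = 0.0472, rho = 0.89 with p = 0.0333). *Mtx2* and *Timm44* ran opposite to each other, with r = −0.87 in both (exact permutation p = 0.00337 and 0.00556, rho = −0.93 and −0.94 with p = 0.00223 and 0.0167). None of the 630 pairs passed an adjusted p under 0.05 in either experiment, with adjusted p-values for r of 0.0625 to 0.156 over 8 libraries and 0.25 to 0.391 over 6 for these 3 pairs. Without the 2 libraries farthest from the median of *Dnajc19*, *Pmpcb* and *Timm44*, respectively, r was 0.83, 0.84 and −0.76 in the first experiment and 0.91, 0.61 and −0.61 in KIKO-700. Points share their libraries and scaling, and the 8 libraries hold 2 groups, whose means were not removed. *Dnajc19* and *Tomm5* were both higher in YG8-800, so that difference is part of their r and p over 8 libraries. The pairs named were picked by their r, so their unadjusted p-values only describe them. Pairs of other genes were not examined, so whether members run together more often than other genes was not tested.

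**Figure D5:**
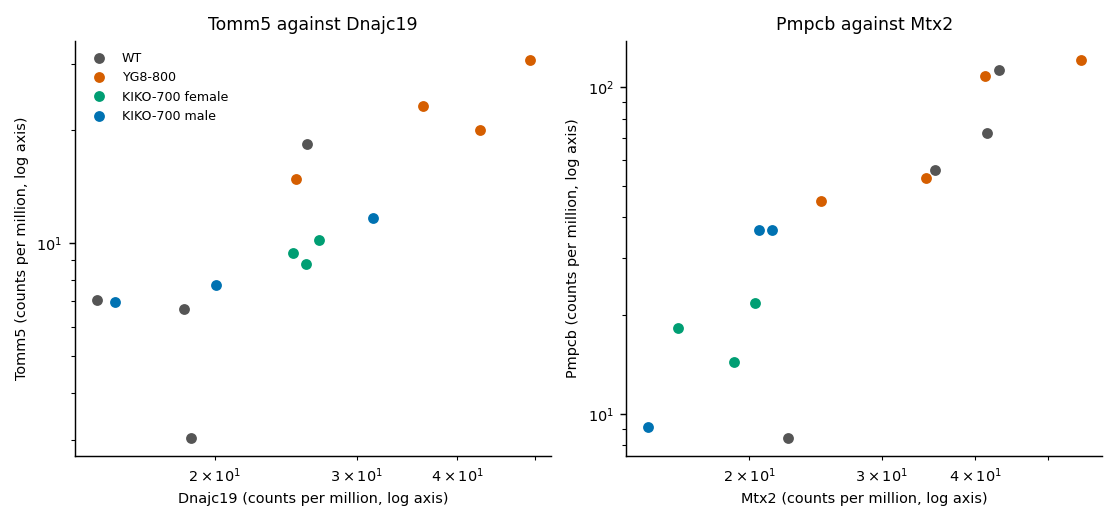
*Tomm5* against *Dnajc19* and *Pmpcb* against *Mtx2*, each point 1 library, both axes in CPM on a log scale, coloured by group. Both pairs rise together, with r = 0.85 and 0.87 over the 8 WT and YG8-800 libraries and r = 0.95 and 0.84 over the 6 KIKO-700 libraries.

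Other genes of import and processing were listed beside the members. Of 13 tested in the YG8-800 experiment, 11 were above 0 with a median of 0.12, and 0 passed an unadjusted p under 0.05. Of the 8 MICOS genes, which shape the cristae and bind the SAM complex, 5 were above 0 (median 0.15) and 0 passed. Over all genes tested in that experiment, 49.5% were above 0 and 6.05% passed. In KIKO-700 1 of 12 and 1 of 8 passed, both lower in males, beside 7.14% of all genes tested (3.75% lower in males). Lists this short cannot tell 1 pass from that share. *Romo1*, a small inner membrane protein linked to the TIM23 channel, was at 231 ± 7.40 CPM in females and 171 ± 16.6 CPM in males (SD, n = 3 each), a log2 fold change of −0.44 (SE 0.15, unadjusted p = 0.0106, adjusted p = 0.562 by edgeR). *Apoo*, a MICOS subunit, was at 4.26 ± 0.477 and 2.69 ± 0.402 CPM, a log2 fold change of −0.68 (SE 0.26, unadjusted p = 0.0201, adjusted p = 0.633 by edgeR).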

How the data were processed

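Heart RNA of 14 mice (4 WT, 4 YG8-800, 3 KIKO-700 female, 3 KIKO-700 male) was read in QuantSeq libraries. The deposited files hold raw counts for each Ensembl gene, which the authors did not normalize. For alignment and counting the study's methods name Rsubread and featureCounts, whereas STAR (2.5.0a) and HTSeq (0.6.1), with build GRCm38.p6, stand in the submitters' notes, and the sources used here do not settle which made the files. Members and lists were chosen with earlier results of these data known. Each contrast was fitted on its own libraries over all genes in R 4.3.3 with edgeR 4.0.16 (filterByExpr, TMM, robust quasi-likelihood test, Benjamini-Hochberg adjustment, threshold 0.05). Levels are CPM with TMM factors over all 14 libraries, with a prior count of 2 on the log2 scale. Values are given for members at an unadjusted p under 0.05, the 2 highest of each complex, X-linked members and members whose groups did not overlap. *Grpel1*, *Grpel2*, *Timm13*, *Timm44*, *Tomm6*, *Tomm34* and *Mtx1* were added after their values were seen. Pseudogene copies were sought with BLAST 2.17.0 in the last 600 transcript bases (at least 95% identity over 100 bases). Alternatives were other scalings and filters, DESeq2 1.42.0, limma 3.58.1, a replicate block, libraries left out, mitochondrial DNA and Gm genes left out, pseudogenes added and an *Xist* covariate. Where sources do not say how animals were bred or handled together, p-values measure the spread between these libraries. The check of the targeted gene is not reported here.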

Additional observations from a re-analysis of the deposited data

Results flagged for a closer look

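*Timm50*, the receptor of the TIM23 channel for presequences, was at 17.6 CPM in YG8-800 4, and the other 3 YG8-800 libraries lay between 12.4 and 13.2 CPM. The gap to the nearest library took 0.850 of the whole range, above Dixon's critical value for 4 samples. This was 1 flag among 72 sets of 4 libraries examined (36 members in WT and in YG8-800), where chance flags about 1 set in 20.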

How the results depend on the processing

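In YG8-800 versus WT, *Dnajc19* (0.77 to 1.22) and *Tomm5* (0.84 to 2.02) kept the sign of their log2 fold change under every alternative run. With no filter on low counts 1 member passed the adjusted threshold (*Tomm5*, adjusted p = 0.00605), beside 107 of 24532 genes. Leaving out 1 library at a time gave 0 to 1 members past the adjusted threshold, 2 to 6 past the unadjusted one and a median of 0.07 to 0.35, the upper ends without WT 4, where 146 of 12276 genes passed the adjusted and 1695 the unadjusted threshold. In KIKO-700 it gave 0 to 2 and 0 to 6 members, the upper ends without male 1, where 864 and 2610 of 12245 genes passed, and a median of −0.054 to 0.040. The cause was not tested. With library size alone as the scaling, the log2 fold changes of *Timm17a* (−0.028) and *Tomm40* (−0.073) changed sign, and the *Xist* covariate did so for *Tomm20* (−0.068).

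Leaving out libraries, 1 or a pair at a time, changed the sign of some small differences, whose ranges were −0.052 to 0.46 for *Mtx2*, −0.35 to 0.33 for *Pmpca*, −0.082 to 0.56 for *Samm50*, −0.011 to 0.45 for *Timm10*, −0.18 to 0.13 for *Timm17b*, −0.30 to 0.010 for *Timm29*, −0.068 to 0.41 for *Tomm20* and −0.11 to 0.37 for *Tomm40* in YG8-800 versus WT. In KIKO-700 they were −0.58 to 0.00271 for *Dnajc19*, −0.21 to 0.095 for *Gfer*, −0.053 to 0.14 for *Hspa9*, −0.078 to 0.19 for *Mtx2*, −0.13 to 0.051 for *Pmpca*, −0.31 to 0.12 for *Timm17b*, −0.12 to 0.048 for *Timm23*, −0.00446 to 0.071 for *Timm29*, −0.23 to 0.088 for *Timm8a1*, −0.33 to 0.00210 for *Timm8b*, −0.066 to 0.17 for *Tomm20* and −0.37 to 0.061 for *Tomm5*. The pairs (WT 2 with WT 3, WT 3 with YG8-800 2) were chosen after seeing the data.

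With a replicate block 3 members passed the unadjusted threshold in YG8-800 versus WT (*Timm13* beside *Dnajc19* and *Tomm5*) at a median of 0.24, beside 867 of 11875 genes. The numbers were not taken to pair the libraries, since the correlations of same-numbered deviations were −0.23, 0.25, −0.03 and 0.13, and in KIKO-700 −0.16, −0.04 and −0.19. Low counts limit *Grpel2* (496 counts over 14 libraries), *Tomm34* (521) and *Mtx1* (602) most among the tested members.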
